A study of Mus musculus with 2 samples.

Results

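The cells described here are gamma-delta T lymphocytes of the mouse proximal small intestine, found by their RNA in droplet single-cell libraries. A barcode counted as a member when it held at least 500 detected genes and under 25% mitochondrial RNA counts, at least 1 count of Ptprc, at least 1 count of Cd3d, Cd3e and Cd3g together and at least 2 counts of Trdc. It also had to hold 0 counts of Cd8b1, Cd4 and Kit and under 3 counts of the cycling genes Top2a, Mki67, Ube2c, Cdk1 and Birc5 together. A count is a unique molecular identifier (UMI), 1 captured RNA molecule. The gate found 989 members among 11862 kept barcodes of 16451 deposited ones. These genes chose the members, so their levels are a description and carry no test.

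Both libraries came from C57BL/6 control mice, 1 titled as the control of the M1 muscarinic receptor model and the other as the control of the M3 model, and are called control 1 and control 2. They carried no listed allele or treatment, and the mice with lowered receptor levels are not among these libraries. The labels do not say whether the 2 libraries came from separate animals, give no age, and describe no sort for lymphocytes. Cells lifted off with EDTA and cells freed with TrypLE were pooled, so position within the epithelium was not measured. There is therefore no treatment to compare, and the question asked of these data is how gamma-delta cells differed from the other T cells of the same suspension.

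As background, gamma-delta T cells build their antigen receptor from a gamma and a delta chain in place of the alpha and beta chains. Many of those in the gut sit between the epithelial cells and are kept there by the integrin CD103, encoded by Itgae, which binds E-cadherin on enterocytes. Gut intraepithelial T cells of the unconventional kind often carry CD8 as an alpha-alpha pair, without the beta chain encoded by Cd8b1, hold granzymes in readiness and depend on interleukin 15 through Il2rb. In mice, most gamma-delta cells of the small intestine use the V gamma 7 segment, which joins to the constant gene Tcrg-C1.

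The constant genes of the gamma chain are shown first because the identity of these cells turns on them. All 4 lie on mouse chromosome 13 (GRCm38, GENCODE M21 annotation). Below are the 140 bases of each last coding exon, on the coding strand up to the base before the stop codon, with capitals at the bases that are unlike Tcrg-C1 at the same position. The exon of Tcrg-C1 is at chr13:19216476-19216615 on the plus strand, that of Tcrg-C2 at chr13:19305063-19305202 on the minus strand, that of Tcrg-C3 at chr13:19263255-19263394 on the plus strand and that of Tcrg-C4 at chr13:19352201-19352340 on the plus strand.
Tcrg-C1: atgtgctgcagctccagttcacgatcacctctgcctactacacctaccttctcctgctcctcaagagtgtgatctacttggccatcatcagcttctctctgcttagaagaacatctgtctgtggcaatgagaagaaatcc
Tcrg-C2: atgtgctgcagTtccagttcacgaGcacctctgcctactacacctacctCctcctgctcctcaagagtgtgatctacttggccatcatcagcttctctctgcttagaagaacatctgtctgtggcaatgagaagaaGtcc
Tcrg-C3: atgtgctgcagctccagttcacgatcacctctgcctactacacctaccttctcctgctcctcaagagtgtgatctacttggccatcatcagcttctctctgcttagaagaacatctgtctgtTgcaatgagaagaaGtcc
Tcrg-C4: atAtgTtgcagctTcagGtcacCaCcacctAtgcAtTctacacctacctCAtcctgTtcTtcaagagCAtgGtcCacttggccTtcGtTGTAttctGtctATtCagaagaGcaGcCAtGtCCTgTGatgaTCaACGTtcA

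Tcrg-C2 differs from Tcrg-C1 at 4 of these bases, Tcrg-C3 at 2 and Tcrg-C4 at 44. Over the whole coding sequence, Tcrg-C1 shares 94.6% of aligned positions with Tcrg-C2, 96.7% with Tcrg-C3 and 72.2% with Tcrg-C4. The transcript end after the stop codon, where reads of a 3' library mostly fall, is 93.4% identical between Tcrg-C1 and Tcrg-C2 and 56.3% between Tcrg-C1 and Tcrg-C4. Counts of Tcrg-C1 and Tcrg-C2 are thus uncertain relative to each other, because a read from a shared stretch cannot be placed.

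Control 1 gave 569 members and control 2 gave 420. They made up 22.2% (exact binomial 95% interval 20.6 to 23.9) of the 2562 barcodes of control 1 with Ptprc and a Cd3 count, and 26.4% (24.3 to 28.7) of the 1590 of control 2, a mean of 24.3% ± 2.97 (SD, n = 2). All intervals here cover counting error only. The mean share was 30.3% when 1 Trdc count sufficed, 20.5% when 3 were required and 9.75% when members also had to hold 0 counts of Trac. The Kit condition removed more barcodes than the other exclusions: 918 barcodes of control 1 and 581 of control 2 met the conditions up to Cd4, and 578 and 425 of them had no Kit count.

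Members held 3377943 counts in control 1 and 2617792 in control 2, with a median of 5585 and 6263.5 per cell. Levels below, written CPM, are counts per 1000000 of all counts of the class in a library, so n is 2 libraries and cells are not replicates. The 2 libraries shared 17 barcode sequences, none of them a member. Of the kept barcodes, 67.4% in control 1 held 2 or more counts of 6 epithelial genes, and so did 37.1% of its members. Some barcodes held RNA of more than 1 cell type: barcodes with over 20000 counts, with 12 epithelial genes at 0.5% or more of their counts, with 20 or more hemoglobin counts or with 5 or more counts of B, plasma or myeloid genes are called mixed barcodes. They were 100 members of control 1, holding 25.5% of the members' counts, and 65 members of control 2, holding 19.9%. In the matched alpha-beta class described below they held 29.2% and 31.5%. Each comparison is therefore given with and without mixed barcodes, a choice made after seeing the data.

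3 classes of the same suspensions served for comparison. The alpha-beta T cells (1200 in control 1 and 617 in control 2) held Ptprc and Cd3 counts, 0 counts of Trdc and at least 1 of Trac, Trbc1 or Trbc2. The matched alpha-beta T cells (783 and 363) were those that also passed the Cd8b1, Cd4, Kit and cycling conditions of the members. The Cd8b1-positive T cells (155 and 121) passed the same conditions but held at least 1 Cd8b1 count, which marks the conventional CD8 alpha-beta pair. Epithelial barcodes (1513 and 1037), with Epcam and keratin or villin counts and none of Ptprc or Cd3, served as a partial background of free RNA. Barcodes that held free Ptprc or Cd3 RNA were left out by this gate, so the class may understate free lymphocyte RNA.

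The gamma constant gene Tcrg-C1 set the members apart. It stood at 921 CPM in the members of control 1 and 826 in those of control 2, against 115 and 239 in matched alpha-beta T cells, 68.9 and 124 in Cd8b1-positive T cells and 4.78 and 6.22 in epithelial barcodes. The members were above every other class in both libraries, and 85.8% and 83.6% of them held a count, against 29.4% and 44.4% of matched alpha-beta T cells and 2.97% and 4.05% of epithelial barcodes. Median depth was 5585 and 6263.5 counts in members, 5305 and 3338 in matched cells and 3479 and 3534 in epithelial barcodes. In edgeR's quasi-likelihood test with the library as a block, the log2 difference from matched cells was 2.45 ± 0.20 (SE), with an adjusted p of 5.6e-31. Tcrg-C1 is a marker named for these cells, so this is a check of the label on a gene outside the gate.

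The other gamma constant genes were not restricted to the members. Tcrg-C2 stood at 455 and 403 CPM in members and at 363 and 368 in matched alpha-beta T cells, a log2 difference of 0.28 ± 0.17 with an edgeR adjusted p of 0.41. Tcrg-C4 stood at 445 and 507 CPM against 362 and 336, with an edgeR adjusted p of 0.053. Tcrg-C3 gave 5 counts in the members of control 1 and 1 in those of control 2. Any of these 4 genes was detected in 97.9% of members in each library, and in 90.7% and 83.7% of matched cells. A count of a gamma constant gene other than Tcrg-C1 thus did not separate members from matched cells in these libraries. Against all alpha-beta T cells, Tcrg-C2 and Tcrg-C4 were higher in members at an edgeR adjusted p under 0.05. Without mixed barcodes, Tcrg-C4 alone of the 2 was higher, against alpha-beta and against Cd8b1-positive T cells.

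Among the variable segments of the gamma chain, Tcrg-V7 showed the largest difference from matched cells. It stood at 24.9 and 42.4 CPM in members, 3.20 and 10.4 in matched cells (log2 difference 2.52 ± 0.29, edgeR adjusted p 6.9e-16). Most members held no Tcrg-V7 count: the third quartile per member was 0 in both libraries, and no cell held more than 2 and 4 counts. The share of members that use this segment therefore cannot be read from these counts. Tcrg-V1 stood at 47.4 and 112 CPM against 20.5 and 42.8 (1.35 ± 0.18, edgeR adjusted p 1.1e-12). Trgv2 was abundant in both classes, at 213 and 353 CPM in members and 182 and 324 in matched cells. Tcrg-V5 and Tcrg-V6, known from skin and from interleukin 17 producing cells of other tissues, and Tcrg-V3 gave at most 5 counts each. Of the 11 gamma chain genes, 7 had enough counts to be tested. Against matched cells 4 were higher (Tcrg-C1, Tcrg-V1, Tcrg-V4 and Tcrg-V7) and 0 lower, where 2.14% and 8.49% of all genes tested were called. Without mixed barcodes 3 were higher (Tcrg-C1, Tcrg-V1 and Tcrg-V7) and 0 lower, against 0.456% and 0.689% of all genes tested.

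Members also held RNA of the alpha and beta constant genes. Trac stood at 317 and 227 CPM in members and at 553 and 487 in matched cells, and was detected in 67.7% and 53.3% of members against 1.78% and 2.80% of epithelial barcodes. Trbc1 or Trbc2 was detected in 93.3% and 90.7% of members, against 7.40% and 9.55% of epithelial barcodes. Both genes helped to choose the comparison class, so no test is given. Variable segments of the beta chain were rarer than the constant genes: any Trbv segment was detected in 3.34% and 4.52% of members and in 11.2% and 13.5% of matched cells. Delta variable segments showed the opposite order, in 12.3% and 23.6% of members and 0.766% and 4.68% of matched cells. Alpha variable segments (Trav) had no common order, in 6.68% and 15.7% of members and 16.9% and 13.5% of matched cells. Alpha joining segments (Traj) were detected in 1.76% and 22.4% of members and in 6.26% and 28.1% of matched cells.

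**Figure D1:**
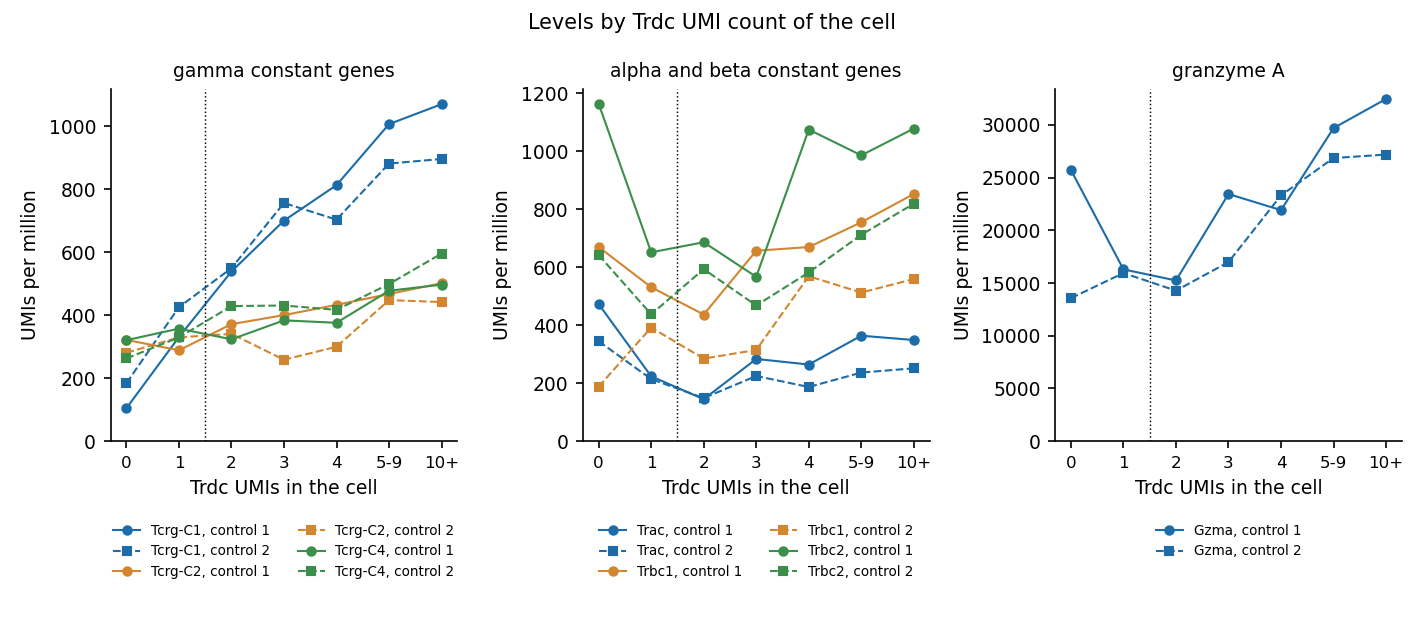
Levels in CPM (vertical axes) of gamma constant genes, alpha and beta constant genes and Gzma in cells grouped by their number of Trdc counts (horizontal axes); circles with solid lines are control 1, squares with dashed lines control 2, and the dotted line marks the gate at 2 counts. Tcrg-C1 climbed from 105 and 184 CPM at 0 Trdc counts to 1070 and 896 at 10 or more, while Tcrg-C2 and Tcrg-C4 varied less.

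The gate at 2 Trdc counts cuts a continuous range. Just inside it, the 84 cells of control 1 and 70 of control 2 with exactly 2 counts held Tcrg-C1 at 539 and 549 CPM. Just outside it, the 121 and 114 cells with exactly 1 count held 330 and 425 CPM. Cells with 10 or more Trdc counts reached 1070 and 896 CPM, and cells with none held 105 and 184. Tcrg-C2 and Tcrg-C4 had a smaller range: from 0 to 10 or more Trdc counts, Tcrg-C4 went from 321 to 497 CPM in control 1 and from 263 to 596 in control 2, and Tcrg-C2 from 321 to 502 and from 281 to 442. The trend was not particular to Tcrg-C1. From 2 to 10 or more Trdc counts, Gzma went from 15241 to 32466 CPM in control 1 and from 14276 to 27190 in control 2. At 0 Trdc counts it stood at 25727 and 13562. The epithelial gene Fabp1 went from 4165 to 918 CPM and from 2951 to 943. Depth moved with the bins, from a median of 3197.5 to 6760 counts per cell in control 1 and from 2998 to 7903 in control 2. Its part in the pattern was not tested.

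Members carried the products known from intraepithelial lymphocytes. Gzma, encoding granzyme A, was abundant among their effector RNAs, at 27309 and 24441 CPM. Its distribution among cells was broad: per 10000 counts of a cell, the quartiles were 121, 261 and 376 in control 1 and 30.1, 225 and 337 in control 2. Gzmb, encoding granzyme B, stood at 3979 and 3449 CPM, and the chemokine gene Ccl5 at 23424 and 19644 CPM. Itgae, encoding the CD103 chain, was detected in 97.2% and 97.9% of members against 3.90% and 6.65% of epithelial barcodes. Cd8a, which was not part of the gate, was detected in 80.3% and 83.1% of members against 5.16% and 7.62% of epithelial barcodes.

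None of these genes distinguished members from the matched alpha-beta T cells. Gzma stood at 29964 and 18930 CPM in matched cells, above the members in control 1 and below them in control 2, and the log2 difference was 0.17 ± 0.64 (edgeR adjusted p 0.94). The log2 difference was 0.30 ± 0.33 for Gzmb (edgeR adjusted p 0.73), 0.44 ± 0.58 for Ccl5 (0.79) and 0.10 ± 0.22 for Itgae (0.90). It was -0.11 ± 0.22 for Cd8a (0.88) and 0.04 ± 0.25 for Fcer1g (0.96), the gene of a signalling chain that unconventional intraepithelial T cells can use in place of CD3 zeta. For the transcription factor genes Tbx21 and Ahr, the interleukin 15 receptor gene Il2rb and the receptor gene Cd244a the differences lay between -0.17 and 0.16, and none passed the test. These p-values do not show that the classes were alike. The intervals are wide for Gzma and Ccl5. The matched class could also hold gamma-delta cells whose Trdc RNA was missed. Of the members, 95.1% and 92.6% themselves held a count of Trac, Trbc1 or Trbc2, which the matched class required. Tcrg-C1 was detected in 29.4% and 44.4% of matched cells, and those of control 2 were shallower than members. The effect of this on the differences was not tested.

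**Figure D2:**
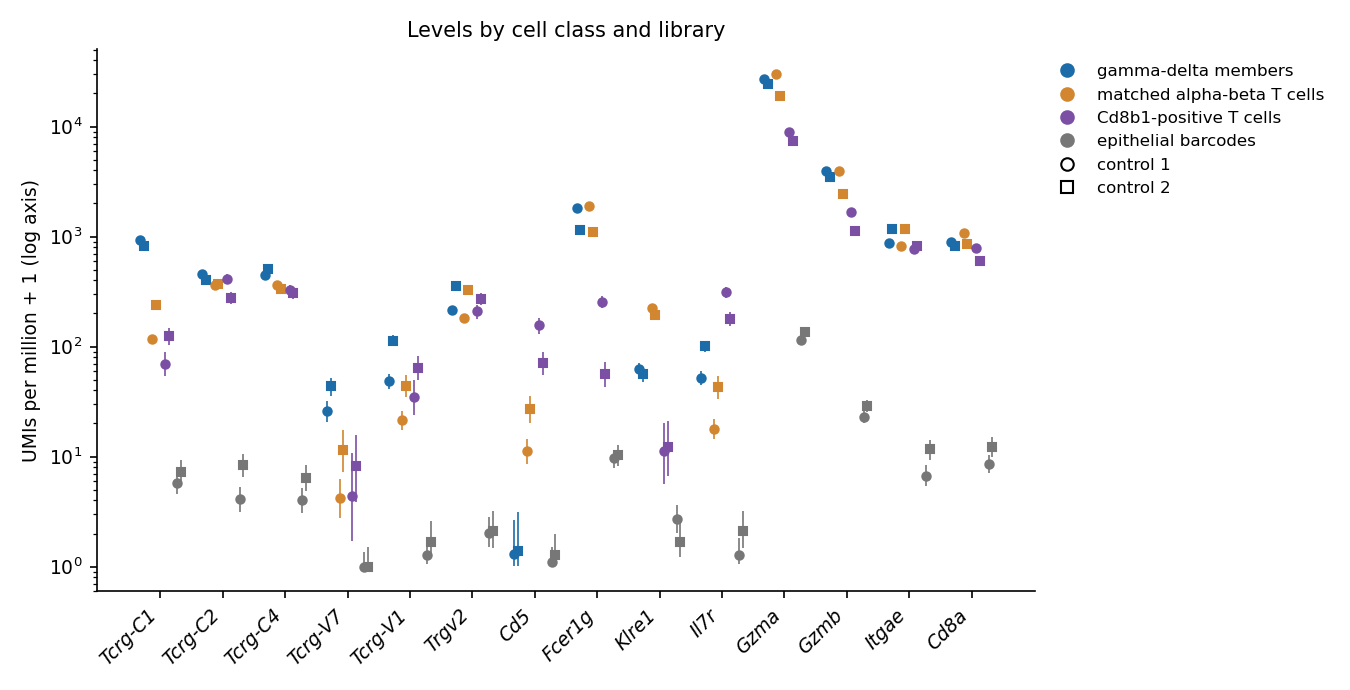
Levels in CPM plus 1, on a log axis, of 14 genes in 4 cell classes (colours) and 2 libraries (circles for control 1, squares for control 2), with exact Poisson 95% intervals. Tcrg-C1 separates the members from every other class, Cd5 stands at 0.296 and 0.382 CPM in members, and Gzma, Gzmb, Itgae and Cd8a lie close together in members and matched alpha-beta T cells.

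Against matched alpha-beta T cells, members differed in named genes of both directions. The receptor gene Klra7 of the Ly49 family, whose products bind class I molecules, was lower in members, as were its relatives Klra6 and the lectin-like receptor gene Klre1. Cd5, a receptor that dampens T cell receptor signals, was nearly absent from members. The segment Tcrg-V7, the actin-severing protein gene Scin, the interleukin 7 receptor gene Il7r, the granzyme gene Gzmk and Cd226, an activating receptor gene, were higher. Genes outside the gate were tested in 11237 cases, and 241 were higher and 954 lower at an adjusted p under 0.05, which is 2.14% and 8.49% of those tested. Without mixed barcodes the counts were 47 (0.456%) and 71 (0.689%) of 10312. Both fits called 39 genes higher and 67 lower, and of these 21 and 43 were also called when every cell was thinned to 2000 counts. Members with 0 counts of Trac gave 18 genes higher and 29 lower, and the fit without the library block 12 and 109. Spread was estimated from 2 libraries, with 1 residual degree of freedom a gene, and may be technical only.

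Cd5 gave 1 count in the members of each library. Matched cells gave 48 counts in control 1 and 45 in control 2, or 10.2 and 26.1 CPM. The level in matched cells was 34.6 times that in members in control 1 (exact 95% interval 5.92 to 1395) and 68.2 times in control 2 (11.6 to 2753). The whole alpha-beta class, with 247 and 183 counts, stood further above the members, at 106 times (18.8 to 4201) and 125 times (22.1 to 4962). The gene lies on chromosome 19 (GRCm38) at chr19:10717116-10739002, on the minus strand. A430093F15Rik, an annotated transcript on the other strand at chr19:10740947-10786043, lies between Cd5 and Cd6 and was low in the same cells, with 2 counts in members of each library against 38 and 26 in matched cells.

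Klra7 stood at 0.888 and 8.02 CPM in members and at 64.7 and 56.2 in matched cells (log2 difference -3.88 ± 0.26, edgeR adjusted p 5.9e-47). Klra6 stood at 3.85 and 6.49 CPM against 53.6 and 78.7 (-3.63 ± 0.25). Both belong to a family of closely similar genes on chromosome 6, so the split of reads between them is uncertain. Klre1 stood at 61.6 and 55.0 CPM in members and 224 and 195 in matched cells (-1.80 ± 0.16, edgeR adjusted p 2.3e-27). In all 3 genes the members of both libraries lay below the matched cells of both. Of the 20 tested genes of a list of natural killer receptors, 3 were higher and 3 lower, with a median log2 difference of -0.20 against 0.01 over all genes tested. Without mixed barcodes, 1 of 19 was higher (Cd226) and 2 lower (Klre1 and Klra7).

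Scin stood at 158 and 245 CPM in members and 35.4 and 46.9 in matched cells (log2 difference 2.31 ± 0.16, edgeR adjusted p 2.8e-42). Il7r stood at 51.2 and 99.3 CPM against 16.9 and 41.7 (1.47 ± 0.18, edgeR adjusted p 1.7e-14), and Thy1, encoding a surface glycoprotein of T cells, at 45.9 and 77.9 against 12.8 and 26.6 (1.75 ± 0.19). For Il7r the lower member value, in control 1, exceeded the higher matched value, in control 2, by a small margin. Gzmk stood at 78.5 and 117 CPM against 45.9 and 23.2 (1.42 ± 0.17, edgeR adjusted p 1.2e-15). It was the only gene of the granule list called both ways of counting: of 19 tested, 3 were higher and 0 lower with all barcodes, and 1 was higher without mixed barcodes. Cd226 stood at 173 and 306 CPM against 61.1 and 201 (1.09 ± 0.16), so control 1 members lay below control 2 matched cells.

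Signalling genes moved in both directions. Lat, the scaffold that links the receptor to calcium signals, stood at 136 and 169 CPM in members and 90.9 and 92.0 in matched cells (log2 difference 0.76 ± 0.15, edgeR adjusted p 1.4e-05). Of 28 tested signalling genes, 4 were higher and 5 lower (median 0.04 against 0.01 over all genes tested), or 1 higher and 3 lower without mixed barcodes. Cd79b, a B cell receptor chain gene, stood at 47.7 and 56.2 CPM in members against 24.98 and 20.8 (1.17 ± 0.19, edgeR adjusted p 3.1e-08). Its partner chain gene Cd79a was at 0 counts in the members of both libraries, and the 6 B and plasma cell genes summed to 77.9 and 117 CPM in members and 58.1 and 87.4 in matched cells. Car2, encoding a carbonic anhydrase, stood at 402 and 406 CPM against 198 and 160 (1.22 ± 0.17).

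Genes of other cell types moved with these classes. The 12 epithelial marker genes summed to 4260 and 2394 CPM in members and to 8556 and 7523 in matched cells, and 11 of 12 were lower and 1 higher. The 4 hemoglobin genes summed to 13744 and 10619.6 CPM in members and 4599 and 2807 in matched cells, and all 4 were higher. In members, 5 cells held 81.2% of the hemoglobin counts in control 1 and 90.3% in control 2, while the median member held 3 and 6. Without mixed barcodes, whose definition uses these genes, no gene of either list was called. The mucus gene Zg16 stood at 2606 and 2539.9 CPM in members and 795 and 841 in matched cells with all barcodes, with 85.4% and 80.1% of the members' counts in 5 cells, and a median of 1 and 3 counts in both classes. Other mucus genes were called in both fits. Fcgbp, encoding a mucus protein of goblet cells, stood at 819 and 1643 CPM in members and 194 and 350 in matched cells (log2 difference 2.20 ± 0.22, edgeR adjusted p 8.7e-22), with 91.8% and 89.3% of the members' counts in 5 cells. Without mixed barcodes it stood at 146 and 1216 CPM against 74.5 and 233 (1.79 ± 0.26, edgeR adjusted p 0.00026), and the thinned difference was 1.38. Clca1, another goblet cell gene, was higher in all 3 fits too, with log2 differences of 2.11, 1.55 without mixed barcodes and 1.23 thinned. Of the members' Clca1 counts, 92.7% and 85.6% were in 5 cells. Without cells holding 2 or more counts of 6 epithelial genes, the Clca1 difference was -0.18 (edgeR adjusted p 0.75). The part of such RNA in the other differences was not tested.

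The antisense transcripts Gm43434 and Gm43647 were also high in members, at 145 and 116 CPM and at 31.1 and 27.9 CPM, against 9.61 and 14.5 and 5.98 and 3.47 in matched cells. Gm43434, on the minus strand at chr14:54128298-54146287 (GRCm38), overlaps Trdc by 96 exon bases, and Gm43647, at chr14:53918327-53961515, overlaps the delta variable segments Trdv2-1 and Trdv2-2. Because reads of the gate gene and its antisense partner may not be told apart, these values are a description.

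The comparison with the whole alpha-beta class, which also holds CD4, Cd8b1-positive, Kit-positive and cycling T cells, gave more calls. Of 11748 genes tested, 337 (2.87%) were higher in members and 1243 (10.6%) lower. Without mixed barcodes, 125 (1.19%) were higher and 211 (2.01%) lower of 10504, and both fits called 90 higher and 112 lower. When members also had to hold 0 counts of Trac, 1 gene was higher and 2 lower, and without the library block 8 were higher and 216 lower. With scaling by total counts alone in place of TMM, 9.83% of the called genes were higher, against 21.3%. These classes share the members with the comparison above, so the results are not independent of it.

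Among the named genes, the surface receptor genes Cd2, Cd6 and Itgal, from 2 of the lists, were lower in members. Cd2, an adhesion receptor gene, stood at 3.55 and 6.11 CPM in members and 20.6 and 23.7 in alpha-beta T cells (log2 difference -2.19 ± 0.29, edgeR adjusted p 0.00019). Cd6, a relative of Cd5, stood at 20.4 and 12.6 CPM against 56.1 and 100.2 (-2.08 ± 0.24), and Itgal, encoding the alpha chain of the LFA-1 integrin, at 20.7 and 28.7 against 34.5 and 47.7 (-0.69 ± 0.16). In each of these genes both member values lay below both alpha-beta values. Maf, a transcription factor gene, stood at 26.3 and 16.4 CPM against 100.4 and 72.0 with all barcodes (-1.97 ± 0.13) and at 10.7 and 8.58 against 21.1 and 20.2 without mixed barcodes, where the log2 difference was -1.03. Zmat4, a zinc finger protein gene, was higher in members, at 184 and 169 CPM against 70.1 and 40.7 (1.71 ± 0.14). The chemokine gene Ccl3 stood at 107 and 61.9 CPM against 62.7 and 35.7 (0.82 ± 0.11), and Serpinb9, an inhibitor of granzyme B, at 46.5 and 55.4 against 32.4 and 27.9 (0.77 ± 0.15). Of 19 tested granule genes, 13 were higher and 0 lower with all barcodes, and 4 were higher without mixed ones (Gzmb, Gzmk, Serpinb6b and Serpinb9).

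**Figure D3:**
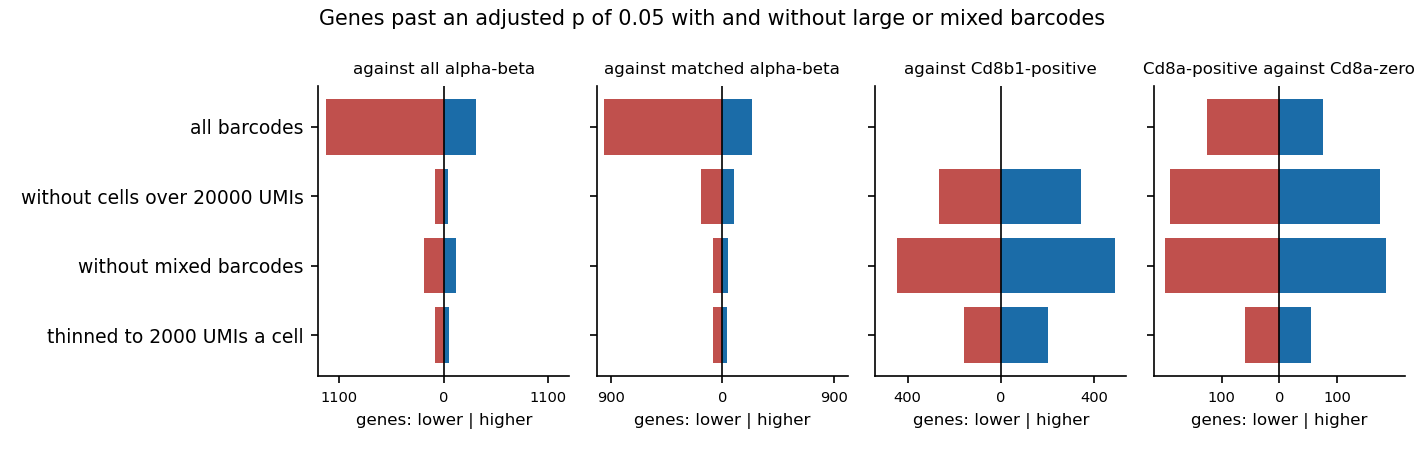
Number of genes called higher (blue, to the right) and lower (red, to the left) at an edgeR adjusted p under 0.05 in 4 comparisons, with all barcodes and under 3 other treatments of the cells; the horizontal scale differs between panels. Leaving out large or mixed barcodes lowered the counts against the alpha-beta classes and raised them against Cd8b1-positive T cells, where all barcodes gave 0.

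Against Cd8b1-positive T cells, the conventional CD8 class, no gene passed the test with all barcodes (0 of 10290, or 0%), although 965 had an unadjusted p under 0.05 and DESeq2's Wald test called 93. A single barcode of 250869 counts held 25.7% of all counts of this class in control 2, and the 12 epithelial genes summed to 3649 CPM in control 1 and 13073 in control 2. Without mixed barcodes, 491 genes (5.2%) were higher in members and 447 (4.74%) lower of 9438. Without the 6% of barcodes with the highest doublet scores, 984 of 9787 were called in either direction, but doublet scoring did not work in control 1. The values that follow are from the fit without mixed barcodes. They rest on that choice, and 132 and 111 Cd8b1-positive cells remained.

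Members stood above the Cd8b1-positive T cells in Fcer1g and Tyrobp, the genes of a pair of signalling adaptors. Fcer1g stood at 1903 and 1148 CPM in members and 190 and 39.5 in Cd8b1-positive cells (log2 difference 3.80 ± 0.12 without mixed barcodes, and 3.55 ± 0.43 with an edgeR adjusted p of 0.14 with all). Tyrobp, encoding the adaptor DAP12, stood at 1018 and 529 CPM against 106 and 44.1 (3.37 ± 0.14). Of 27 tested T cell signalling genes, a list that holds Fcer1g, 7 were higher and 9 lower, with a median of -0.00 against 0.00. The lectin-like receptor genes Klrd1 (2.34 ± 0.11), Klre1 (3.02 ± 0.34) and Klrb1a (3.15 ± 0.32) were higher too. Klrd1, encoding CD94, stood at 1497 and 1027 CPM against 309 and 190. Of 16 tested natural killer receptor genes, 9 were higher and 4 lower (Cd160, Cd226, Crtam and Slamf7), with a median log2 difference of 0.97 against 0.00 over all genes tested.

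The granzyme genes Gzma and Gzmb were higher as well. Gzma stood at 28822 and 24707 CPM in members and 8517 and 9159 in Cd8b1-positive cells (log2 difference 1.59 ± 0.07, edgeR adjusted p 1.5e-96). Gzmb stood at 4211 and 3598 CPM against 1528 and 1371 (1.42 ± 0.08). Both values of each gene lay above both of the other class. Of 19 tested granule genes, 11 were higher, among them the perforin gene Prf1, and 0 were lower (median 0.36 against 0.00). Il2rb, encoding the receptor chain shared by interleukins 2 and 15, stood at 332 and 244 CPM against 91.2 and 86.6 (1.69 ± 0.15). The inhibitory receptor gene Lag3 (2.25 ± 0.24), the ectonucleotidase gene Entpd1 (2.67 ± 0.25), the costimulatory receptor gene Tnfrsf9 (2.58 ± 0.28) and Ikzf2, encoding the transcription factor Helios (2.01 ± 0.11), were also higher. Their lists were divided: of 19 checkpoint and costimulatory genes, 7 were higher and 5 lower (Ctla4, Cd160, Btla, Icos and Cd28), and of 30 transcription factor genes, 5 were higher and 8 lower. The direction depended on the class compared: without mixed barcodes, Ikzf2, Klrb1a and Klre1 were lower in members than in all alpha-beta T cells. With all barcodes, Klre1 was called lower there, and Ikzf2 and Klrb1a were not called.

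Genes of naive and recirculating T cells were lower in members than in Cd8b1-positive T cells. Of 9 tested, 7 were lower and 0 higher, with a median log2 difference of -1.36 against 0.00 over all genes tested. Against matched cells the list went the other way: with all barcodes, 3 of 8 were higher (Tcf7, Il7r and Satb1) and 0 lower, median 0.58. Without mixed barcodes, 1 of 8 was higher (Il7r) and 0 lower there. Il7r stood at 58.4 and 101 CPM in members and 309 and 258 in Cd8b1-positive cells (-1.87 ± 0.13), the reverse of its order against matched cells. Tcf7, encoding the transcription factor TCF-1, stood at 24.6 and 31.9 CPM against 101 and 89.6 (-1.77 ± 0.20), and S1pr1, encoding the receptor that guides T cells out of tissue, at 0.397 and 1.91 against 11.8 and 16.7. Cd6 stood at 23.4 and 14.8 CPM against 321 and 293 (-3.99 ± 0.16), and Cd2 at 3.97 and 7.15 against 67.7 and 71.4 (-3.66 ± 0.32). With all barcodes, Cd5 in Cd8b1-positive cells was 522 times its level in members in control 1 (exact 95% interval 92.2 to 20779.7) and 182 times in control 2 (31.6 to 7307). Btla, an inhibitory receptor gene, gave 1 and 2 counts in members against 19 and 19, or 72.4 times (11.5 to 3009.9) and 25.5 times (6.15 to 226).

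Of 20 tested homing and retention genes, 8 were lower, 2 higher (Itga1 and Cdh1) and 10 not called, with a median of -0.34 against 0.00. Itgal stood at 17.9 and 31.9 CPM in members against 153 and 108 (-2.42 ± 0.19), and Itga4, encoding a chain of the gut homing integrin, at 67.6 and 113 against 262 and 263 (-1.57 ± 0.13). The gut homing chemokine receptor gene Ccr9 had a log2 difference of -0.46 ± 0.11. Itgae (0.13 ± 0.09, edgeR adjusted p 0.47) and Cd8a (0.13 ± 0.09, 0.53) did not pass the test. Of the 12 epithelial genes 1 was called: Epcam, encoding an adhesion molecule of epithelium that intraepithelial lymphocytes can also carry, at 149 and 105 CPM in members against 41.2 and 22.8 (1.99 ± 0.21). With all barcodes its Cd8b1-positive values were 55.3 and 503 CPM, on either side of the members.

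**Figure D4:**
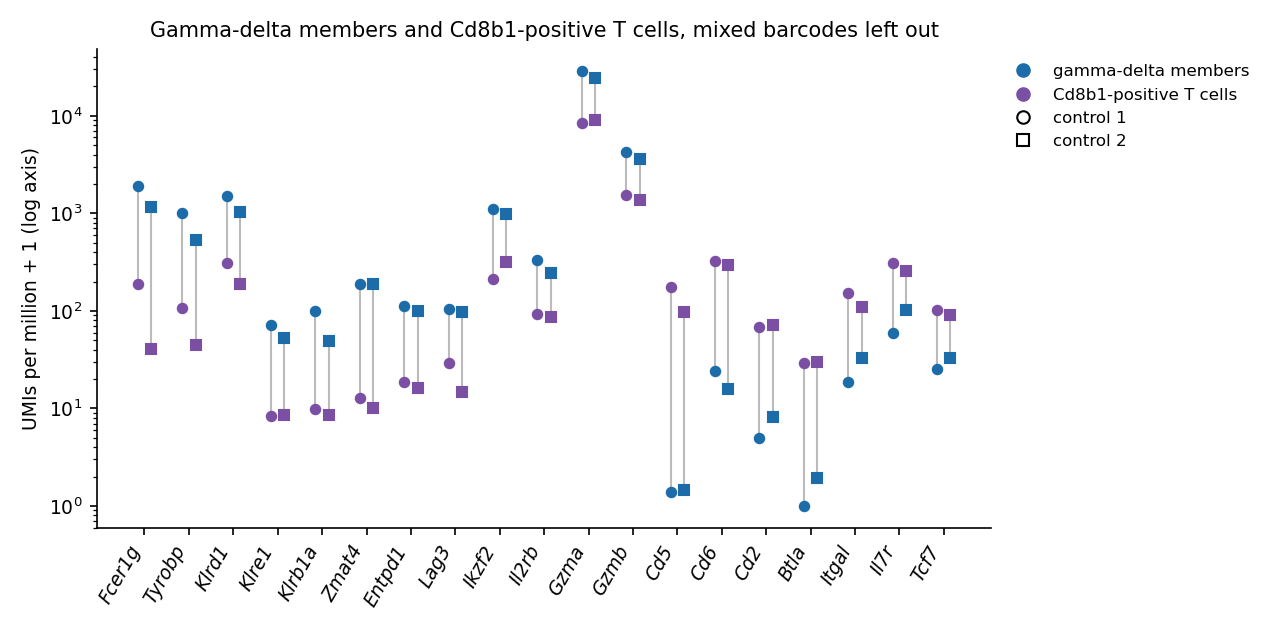
Levels in CPM plus 1, on a log axis, of 19 genes in gamma-delta members (blue) and Cd8b1-positive T cells (purple) with mixed barcodes left out; circles are control 1, squares control 2, and a grey line joins the classes of 1 library. Genes from Fcer1g to Gzmb lie higher in members in both libraries, and genes from Cd5 to Tcf7 lie lower in both.

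A second difference ran within the members, between the 457 and 349 cells with a Cd8a count and the 112 and 71 without one. Cd8a-positive members held more Gzma, Gzmb, Ccl5 and Il2rb RNA, and Cd8a-zero members held more Tcf7 and Satb1 RNA. Of 9633 genes tested, 75 (0.779%) were higher in Cd8a-positive members and 125 (1.3%) lower. Without mixed barcodes, 185 (2.05%) were higher and 198 (2.19%) lower of 9044. Both fits called 65 higher and 47 lower, and 34 and 20 of these were also called after thinning to 2000 counts. Without the library block 5 were higher and 0 lower. The share of called genes that were higher was 37.5%, and 26.8% when scaled by total counts alone. Cd8a-zero members were shallower, with medians of 4900 and 4125 counts against 5662 and 6550, so absence of Cd8a RNA and a missed capture cannot be told apart.

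Gzma stood at 30121 and 26290 CPM in Cd8a-positive members and 15228 and 10613 in Cd8a-zero members (log2 difference 1.24 ± 0.16, edgeR adjusted p 6.3e-06). Gzmb stood at 4409 and 3732 CPM against 2128 and 1335 (1.35 ± 0.17, edgeR adjusted p 6.1e-06). Both Cd8a-positive values lay above both Cd8a-zero values in each gene, as they did for Ccl5, at 25234 and 21087 CPM against 15646 and 8844 (1.06 ± 0.17). Of 19 tested granule genes, 5 were higher and 0 lower, with a median of 0.39 against -0.00 over all genes tested, and 6 and 0 without mixed barcodes.

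Il2rb stood at 349 and 258 CPM in Cd8a-positive members and 125 and 90.7 in Cd8a-zero members (1.58 ± 0.22, edgeR adjusted p 1.8e-05). Klrb1a stood at 117 and 63.7 CPM against 9.41 and 19.4 (2.95 ± 0.38), and Fcer1g at 2010 and 1194 against 966 and 826 (0.89 ± 0.18). Tyrobp stood at 1122 and 563 CPM against 488 and 353 (1.04 ± 0.19), but 1 Cd8a-zero cell held 56.9% of the Tyrobp counts of that class in control 2, and without it the value was 157. Lag3 (1.62 ± 0.28), Tnfrsf9 (2.52 ± 0.34), Cd200r1 (1.07 ± 0.20) and Cd7 (1.12 ± 0.19) were the 4 of 16 checkpoint and costimulatory genes that were higher, and 0 were lower. Without mixed barcodes 5 were higher and 1 (Cd160) lower. Of 16 tested natural killer receptor genes, 4 were higher (Klrd1, Klre1, Klrb1a and Tyrobp) and 1 lower (Cd226), or 4 higher and 3 lower (Klrb1c, Cd160 and Cd226) of 15 without mixed barcodes. Tcrg-C1 itself stood at 1046 and 874 CPM against 386 and 466 (1.27 ± 0.19, edgeR adjusted p 5.9e-05), while Tcrg-C2 stood at 466 and 402 against 411 and 411 (edgeR adjusted p 0.83).

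Tcf7 stood at 15.7 and 17.3 CPM in Cd8a-positive members and 48.6 and 133 in Cd8a-zero members (log2 difference -2.20 ± 0.35, edgeR adjusted p 0.00016). Satb1, a chromatin organiser gene of developing T cells, stood at 10.2 and 13.4 CPM against 39.2 and 55.1 (-1.89 ± 0.42), and Il7r at 34.7 and 95.3 against 122 and 130 (-1.06 ± 0.27, edgeR adjusted p 0.023). Ltb, encoding lymphotoxin beta, stood at 107 and 113 CPM against 199 and 256 (-0.94 ± 0.21). In these genes the Cd8a-zero values of both libraries lay above the Cd8a-positive values of both. For Il7r, 1 Cd8a-zero cell of control 2 held 25% of the counts of its class, and without it the value there was 98.0 CPM, next to 95.3 in Cd8a-positive members. Il7r was detected in 21.1% of Cd8a-zero and 30.7% of Cd8a-positive members of control 2, and in 36.6% and 11.8% of control 1. Of 9 tested naive and recirculating genes, 3 were lower and 0 higher (median -1.06), or 5 of 7 lower and 0 higher (median -1.13) without mixed barcodes.

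Xcl1, encoding the chemokine lymphotactin, passed the test (log2 difference -1.30 ± 0.24, edgeR adjusted p 0.00090), but 1 cell held most of its counts. It stood at 242 and 173 CPM in Cd8a-positive members and 972 and 266 in Cd8a-zero members. A single Cd8a-zero cell of control 1 held 484 Xcl1 counts, 78.1% of the class, and without it the Cd8a-zero value of control 1 was 215 CPM, below the Cd8a-positive value. Itgae (0.07 ± 0.18, edgeR adjusted p 0.94) did not pass the test. The 4 hemoglobin genes were higher in Cd8a-positive members with all barcodes and none was called without mixed ones, and 7 of 12 epithelial genes were lower with all barcodes and 1 (Phgr1) without.

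**Figure D5:**
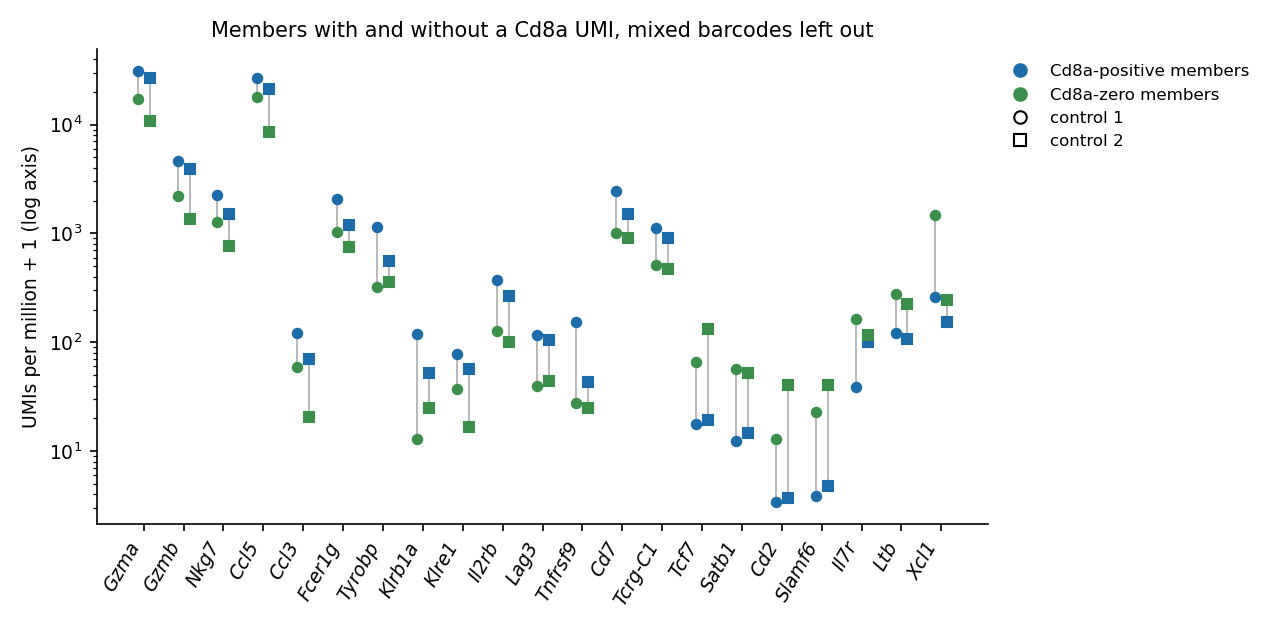
Levels in CPM plus 1, on a log axis, of 21 genes in members with a Cd8a count (blue) and members with none (green), with mixed barcodes left out; circles are control 1, squares control 2, and a grey line joins the subsets of 1 library. The genes from Gzma to Tcrg-C1 lie higher in Cd8a-positive members in both libraries and those from Tcf7 to Xcl1 lie lower, and the Xcl1 value of 1482 CPM in control 1 includes the cell with 484 counts.

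Of a list of 17 genes drawn up for the interleukin 17 type of gamma-delta cell, 10 gave counts in control 1 members and 9 in control 2. The list also holds Cd27 and Ly6c2, which are not particular to that type, so its counts and sums do not measure the type. The list summed to 166 and 131 CPM in members, 225 and 170 in matched cells and 140 and 283 in Cd8b1-positive T cells. Epithelial barcodes held more, at 546 and 405 CPM, so the sums are not particular to lymphocytes. Against all alpha-beta T cells, 1 of 9 tested genes (Cd27) was higher and 5 were lower, against 2.87% and 10.6% over all genes tested. Without mixed barcodes, 0 of 3 were higher and 1 (Maf) was lower. Il17a, Il17f, Il23r, Il1r1 and Ccr6 gave 0 counts in the 569 members of control 1, which allows a share of up to 0.527% of cells with a count, and 0 in the 420 of control 2, which allows 0.714%. Il17a and Il17f also gave 0 counts in alpha-beta, matched and Cd8b1-positive T cells and in epithelial barcodes. Ifng, encoding interferon gamma, stood at 6.81 and 10.3 CPM, and Tbx21, the transcription factor gene of interferon producing cells, at 99.5 and 95.5 CPM. Eomes, another transcription factor gene of cytotoxic lymphocytes, gave 2 and 6 counts. Low capture and absence of these RNAs cannot be told apart at this depth.

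The members of the 2 libraries also differed from each other, with 1 sample on each side and therefore no test. Of 7696 genes with at least 50 counts in members of either library, 64 were at least 2-fold higher in control 2 and 183 in control 1, and 15 and 73 at least 3-fold. Il31ra, a cytokine receptor gene, gave 188 counts in 132 members of control 2 and 4 in control 1. Trdj1, a delta joining segment, gave 198 counts in control 2 and 2 in control 1. Cacnb4, a calcium channel subunit gene, gave 112 counts in 79 members of control 1 and 3 in control 2. These genes were spread over many cells. The myeloid gene Lyz2 was not, with 780 counts in control 1 of which 61.2% were in 1 cell, against 7 in control 2. Library preparation, animal and mouse colony cannot be told apart here.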

How the data were processed

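The series gives droplet 3' single-cell libraries (10x Genomics) of 2 control suspensions. Per the file headers, the authors deposited raw UMI counts for 32285 genes from Cell Ranger 7.1.0. The submitters' processing notes name Cell Ranger 6.1 and 7.1.0 with GRCm38 and mm10. Whether introns were counted is not given in the sources used here, and cell calling was the authors'. Counts were not changed. Members and gene lists were chosen with earlier results of these data known.

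Counts were summed per class and library and tested with edgeR 4.0.16 (R 4.3.3): TMM scaling, filterByExpr, glmQLFit and glmQLFTest with the library as a block, and Benjamini-Hochberg adjustment over all tested genes outside the gate, at 0.05. The SE is the log2 fold change divided by the square root of F. Classes of 1 library come from the same suspension, which is the source of the pairing, and library deviations of the classes correlated at 0.430, 0.442, 0.028 and 0.316 over genes in the comparisons with alpha-beta, matched and Cd8b1-positive cells and within members. The pipeline was tested on simulated class sums drawn with the dispersion fitted to these data. Mixed barcodes were not simulated, so that test says nothing about their effect. Alternatives used DESeq2 1.42.0, other filters, thinning to 2000 counts and other gates. Named genes were the 10 largest changes each way with 20 CPM or more, up to 4 a list, and a set list of marker genes. Klra6, Thy1, Car2, A430093F15Rik, Btla, Trgv2 and the genes cited without mixed barcodes were added after their values were seen. Doublets were scored with Scrublet (scanpy 1.11.5, Python 3.11.15), which called 0.0702% and 0.590% of kept barcodes and so did not work in control 1. No doublets were removed by it. Sequences are from GENCODE M21 transcripts on GRCm38.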

Additional observations from a re-analysis of the deposited data

How the results depend on the processing

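Calls depended strongly on the cells kept. Numbers of genes called are given in the order alpha-beta, matched, Cd8b1-positive and within members, where each moved by over 1.5 times. Without the replicate block that pairs classes by library, 224, 121, 28 and 5 genes were called. DESeq2 called 318, 222, 93 and 24. Thinning to 2000 counts gave 146, 113, 362 and 113. Without cells holding 2 or more counts of 6 epithelial genes, 226, 320, 489 and 322 were called. Chosen after seeing the data, leaving out cells over 20000 counts gave 141, 266, 611 and 364, and leaving out mixed barcodes gave 336, 118, 938 and 383. Without the 6% highest Scrublet scores, 779 were called against matched and 984 against Cd8b1-positive cells. Requiring 1 Trdc count gave 160 and 523 against alpha-beta and matched cells, and requiring 3 gave 6 against Cd8b1-positive cells. Members with Trac at 0 gave 3 and 47 against alpha-beta and matched cells. Scaling by total counts gave 926 against alpha-beta and 7 against Cd8b1-positive cells, no filter beyond 1 count gave 253 against Cd8b1-positive cells, and a minimum of 1000 genes gave 5 against them and 46 within members. The cause of these changes was not tested.

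The mean share of members moved to 30.3% with 1 Trdc count, 20.5% with 3 and 9.75% with Trac at 0. It ranged from 22.2% to 26.4% when either library was left out. Leaving out a library leaves 1 sample a class and no residual degrees of freedom, so genes were not tested that way.

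Log2 differences that changed sign were mostly of hemoglobin, epithelial and mucus genes. Against alpha-beta cells without mixed barcodes they were -0.011 for Hbb-bs, -0.070 for Hbb-bt, -0.024 for Hba-a1, 0.13 for Reg3b, 0.093 for Reg3g, 0.64 for Ifngr2, 0.040 for Pgam1, 0.070 for Jun and 0.13 for Cdh17. Without cells over 20000 counts they were 0.032 for Reg3g and 0.47 for Ifngr2. Without cells with epithelial counts they were 0.28 for Reg3b, 0.26 for Reg3g, 0.62 for Ifngr2 and 0.14 for Pgam1. Thinned, they were 0.20 for Ifngr2, 0.10 for Ldha and 0.023 for Pgam1. With Trac at 0 they were -0.10 for Klrd1, -0.065 for Tmsb4x, -0.060 for Btg2, -0.13 for Gzma and -0.18 for Fcer1g. Against matched cells without mixed barcodes they were -0.091 for Hbb-bs, -0.17 for Hbb-bt, -0.11 for Hba-a1 and for Hba-a2, 0.093 for Reg3b, 0.34 for Enpp3, 0.016 for Neat1, 0.066 for Cdh17 and 0.40 for Krt20. Without cells with epithelial counts they were -0.18 for Clca1, -0.67 for Agr2, 0.12 for Reg3b, 0.21 for Enpp3 and 0.24 for Krt20, and thinned 0.22 for Ldha. Within members, without mixed barcodes they were -0.34 for Hba-a1, -0.36 for Hbb-bs, -0.49 for Hba-a2 and 0.19 for Reg1. Without cells with epithelial counts they were -0.53 for Spink4, -0.015 for Muc2, -0.0046 for Clca1, 0.18 for Reg1 and 0.015 for Lgals4, and without cells over 20000 counts -0.15 for Spink4.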
